A study of Drosophila melanogaster with 3 samples.

Results

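MicroRNA genes were examined for binding of Methoprene-tolerant (Met) in white prepupae of *Drosophila melanogaster*. The members were all genes annotated as microRNA precursors (hairpins) by Ensembl release 115 on the 6 major chromosome arms, which gave 260 of 23973 annotated genes on those arms. A further 2 hairpins on the ribosomal DNA scaffold were left out of the 262 annotated. Met is a bHLH-PAS transcription factor and a receptor of juvenile hormone. Its binding was read from ChIP-seq, the sequencing of DNA that is pulled down with a protein, and 3 libraries formed the single group. Each came from whole prepupae, males and females together, of a transgenic line that stably expresses Met with green fluorescent protein (GFP) at its C-terminus. The labels disagree on the antibody: their description names an antibody to GFP and their antibody field reads Met, so pull-down of untagged Met cannot be told apart. The age is labelled unknown, and the promoter that drives the fusion is not given in the sources used here. Tissues were not separated, so binding in different cell types cannot be told apart. Tissue markers could not be checked, since no RNA was measured. With 1 group there was no second condition to compare, so no test of a difference between conditions exists.

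MicroRNAs are short RNAs that guide Argonaute proteins to messenger RNAs and lower their output. The long primary transcript is cut to a hairpin in the nucleus and then to a short duplex in the cytoplasm, and bases 2 to 8 of the mature strand, the seed, pair with targets. Some hairpins lie in introns or exons of a host gene and are made from its transcript, and others have a primary transcript of their own. At the onset of metamorphosis in this species, let-7, mir-100 and mir-125 are known to rise with ecdysone and mir-34 to fall, and juvenile hormone is known to oppose that change.

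The mature sequences of the microRNAs whose loci the results turn on are shown first, 5′ to 3′ with the seed in capitals. All 260 hairpins had at least 1 mature entry in RefSeq (Release 6 of the assembly), and 481 mature sequences were found. The let-7 complex encodes 3 microRNAs with different seeds in a single transcript on arm 2L. Beside them is mir-34, which, like them, was to be named whatever its values.
let-7 (5′ arm): uGAGGUAGuagguuguauagu
mir-100 (5′ arm): aACCCGUAaauccgaacuugug
mir-125 (5′ arm): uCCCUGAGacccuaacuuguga
mir-34 (5′ arm): uGGCAGUGugguuagcugguugug
mir-317 (3′ arm): uGAACACAgcuggugguauccagu

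The next set shows hairpins that share a seed with another hairpin. All but mir-276a and mir-276b also share a summit with a hairpin of the same seed. The seed AUCACAG, which pairs with the K box in target messages, was found in 14 hairpins at several loci, and 9 of them had a summit within 5 kb. The seed AUUGCAC was found in 6 hairpins, of which 6 had a summit. These are not separate cases, since mir-310 to mir-313 share a summit, and so do mir-92a and mir-92b. Seed GACUAGA was carried by 3 hairpins, of which 2 had a summit, and AGGAACU by 2, both with a summit. These counts stand against 39.2% of all hairpins with a summit. In all, 33 seeds were shared by at least 2 hairpins.
mir-2a-1 (3′ arm): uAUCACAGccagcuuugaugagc
mir-2b-2 (3′ arm): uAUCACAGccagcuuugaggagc
mir-13a (3′ arm): uAUCACAGccauuuugaugagu
mir-279 (3′ arm): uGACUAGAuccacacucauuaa
mir-996 (3′ arm): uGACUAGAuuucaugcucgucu
mir-92a (3′ arm): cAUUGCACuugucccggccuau
mir-92b (3′ arm): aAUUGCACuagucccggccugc
mir-276a (3′ arm): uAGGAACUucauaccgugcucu
mir-276b (3′ arm): uAGGAACUuaauaccgugcucu

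The last set shows further microRNAs that lay near a strong summit or in a host gene of known function. In mir-9a and mir-282 the printed strand is that of the 5′ arm, as it is in mir-33 and mir-305.
mir-9a (5′ arm): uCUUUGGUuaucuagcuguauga
mir-282 (5′ arm): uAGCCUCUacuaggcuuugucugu
bantam (3′ arm): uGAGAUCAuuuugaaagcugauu
mir-275 (3′ arm): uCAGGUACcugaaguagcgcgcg
mir-305 (5′ arm): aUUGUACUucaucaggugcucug
mir-33 (5′ arm): gUGCAUUGuagucgcauuguc

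Several windows of 101 bases centred on a summit are shown as well, from the RefSeq Release 6 genome (dm6), plus strand, with any searched motif in capitals. They are the summit shared by the let-7 complex, the strongest summit near any hairpin (mir-279 and mir-996), the summit at bantam, and the summits with a C-box near mir-275 and an E-box inside the mir-4962 hairpin. The E-box is CACGTG and the C-box is CACGCG, which reads CGCGTG on the other strand. Both are known as binding sequences of Met with its partners.
let-7 complex, chr2L:18468760-18468860: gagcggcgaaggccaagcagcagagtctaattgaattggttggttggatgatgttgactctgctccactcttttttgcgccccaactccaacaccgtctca
mir-279 and mir-996, chr3R:29214383-29214483: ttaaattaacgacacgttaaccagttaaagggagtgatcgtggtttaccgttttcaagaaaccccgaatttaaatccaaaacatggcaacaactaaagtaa
bantam, chr3L:640731-640831: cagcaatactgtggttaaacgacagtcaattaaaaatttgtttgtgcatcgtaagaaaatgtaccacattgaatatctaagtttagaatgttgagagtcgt
mir-275 and mir-305, chr2L:7423439-7423539: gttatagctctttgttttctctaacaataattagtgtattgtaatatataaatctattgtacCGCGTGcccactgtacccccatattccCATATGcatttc
mir-4962, chrX:3777395-3777495: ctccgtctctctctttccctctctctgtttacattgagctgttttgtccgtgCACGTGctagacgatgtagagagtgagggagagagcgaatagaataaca

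The deposited dm6 list cut by the irreproducible discovery rate (IDR) held 8513 peaks. It is made of the strongest peaks of a pooled relaxed list of 30000, so a peak in it need not recur in every replicate. For each replicate, peaks among the 8513 strongest of its own list were used, which left 8513, 8497 and 8506 on the major arms in replicates 1, 2 and 3. Peak lists hold no read counts, so depth is unknown. The authors' signal value was used only to rank peaks within a list, with rank 1 the strongest.

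A summit within 5 kb was found for 102 of the 260 hairpins (39.2%), and 158 had none. Of all positions on the major arms, 32.5% lay within 5 kb of an IDR summit. The replicate lists gave 102, 103 and 97 hairpins, a mean of 38.7% ± 1.24 (SD, n = 3). Among other small RNA genes, tRNA and snoRNA genes had a summit more often. A summit within 5 kb was found for 56.6% of 290 tRNA genes, 68% of 269 snoRNA genes and 37.5% of 32 snRNA genes. Of 13945 protein-coding genes, 41.9% had a summit within 5 kb of an annotated transcription start site (TSS). None of these differences was tested, because neighbouring genes share summits.

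The replicates named largely the same hairpins. Of the 102 hairpins with an IDR summit, 89 had a summit in all 3 replicate lists, 10 in 2 lists and 3 in 1 list. A further 11 hairpins without an IDR summit reached 5 kb in at least 1 replicate list, and 147 of the 260 did so in none. At shorter distances the number fell to 49 (18.8%) within 2 kb, against 17.8% of positions, and to 29 (11.2%) within 1 kb, against 10.5% of positions, so both shares were near the background. At 10 kb the number was 136 (52.3%), against 47.5% of positions. With all 30000 pooled relaxed peaks 158 hairpins (60.8%) were within 5 kb of a summit, against 61.4% of positions.

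Summits rarely lay on a hairpin itself. The nearest summit was inside the hairpin for 2 of the 102, upstream along the hairpin's strand for 60 and downstream for 40. Its median distance was 2182.5 bp in the 102 and 8512.5 bp over all 260 hairpins. It lay within 250 bp for 5 hairpins and within 500 bp for 12. The last hairpin inside the limit was mir-1005, at 4980 bp, and the first outside it was mir-252, at 5172 bp. The hairpin farthest from any summit was mir-2279, at 961771 bp.

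Hairpins were separated by their place in genes, and each class was set against all positions of the same class. Of 100 intronic hairpins, which lie in a host gene on the same strand and touch none of its exons, 43 (43.0%) had a summit within 5 kb, against 36.9% of intronic positions. Of 85 exonic hairpins 41 (48.2%) had one, against 34.8% of exonic positions. Of 48 intergenic hairpins, which overlap no gene on either strand, 15 (31.2%) had one, against 24.9% of intergenic positions. A smaller class of 27 hairpins overlapped a gene on the opposite strand only, and 3 of these (11.1%) had a summit, against 35.5% of such positions. Counted by hairpin, this class was the only one of the 4 that lay below its own positions. Each hairpin of a cluster was counted, and loci were not counted by class. For example, the intergenic hairpins mir-310 and mir-311 belong to a cluster of 7 hairpins that share a summit, so the intergenic cases are not all separate.

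Over the replicate lists the order of the classes was the same. Intronic hairpins had a summit in 42.7% ± 1.53, intergenic hairpins in 31.9% ± 1.20, exonic hairpins in 46.3% ± 2.45 and opposite-strand hairpins in 12.3% ± 2.14 (SD, n = 3 lists each). The intronic share exceeded the intergenic share by 12.75, 9.67 and 9.75 percentage points in replicates 1, 2 and 3, and by 11.75 points in the IDR list. Over all positions of the major arms, intronic positions exceeded intergenic positions by 11.97 points in the IDR list. The gap between the hairpins in that list was near this value. It counts each hairpin of a cluster, also where these share a summit, and was not computed by locus. An exact sign-flip test over 3 lists cannot give a two-sided p below 0.25, and the lists share the hairpins, so no p is given. The gap depended on the distance, since it was 2.33 points at 2 kb, 5.75 at 1 kb and 17.25 at 10 kb. It was 6.92 points when summits within 500 bp of an annotated TSS were left out, 6.08 with the 4256 strongest IDR peaks, 4.75 with the pooled relaxed list, and 6.36 when host genes on either strand counted. Among IDR peaks overlapped in the other replicates it was 6.75 points without replicate 2, and 10.83 without replicate 1 or replicate 3. The gap between positions was computed only at 5 kb with the whole IDR list, so the gaps under other settings have no background here.

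**Figure D1:**
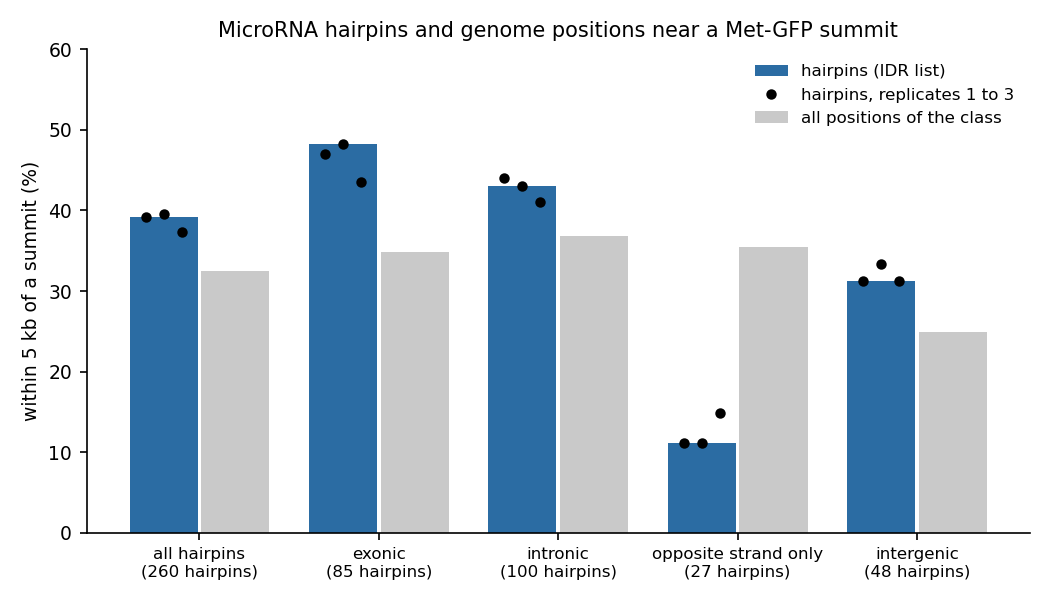
Share of hairpins within 5 kb of a Met-GFP summit (%, y axis) by class, as blue bars for the IDR list and black points for replicates 1 to 3, beside grey bars for all positions of the same class. Exonic, intronic and intergenic hairpins stand at 48.2%, 43.0% and 31.2%, each above its own positions. The 27 hairpins opposite a gene stand at 11.1%, below theirs. Each hairpin of a cluster is counted.

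Host genes were protein-coding for 97 of the intronic hairpins, of which 43 (44.3%) had a summit, and long noncoding RNAs (lncRNAs) for 3, of which 0 had one. Among exonic hairpins, 24 of 47 in lncRNAs (51.1%) and 17 of 38 in coding genes (44.7%) had a summit. Summits also lay at the start of many hosts. Of 87 protein-coding hosts of intronic hairpins 33 (37.9%) had a TSS within 1 kb of an IDR summit, against 22.2% of all protein-coding genes. The share was 36.8% for the 38 coding hosts and 40.6% for the 32 lncRNA hosts of exonic hairpins. No share was computed for all lncRNA genes, so the value for lncRNA hosts has no background here. Host genes were not matched to other genes for length or number of start sites.

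Summits near hairpins lay both at annotated promoters and away from them. Of the 102 hairpins, 51 had their strongest summit and 41 their nearest summit within 500 bp of a TSS. A summit farther than that from any TSS was found for 82, of which many reached several summits, and 20 had only summits near a TSS. Of all IDR summits, 67.8% lay away from a TSS. The 102 hairpins reached 172 different summits, which is 2.02% of the IDR list, and 29 of these were shared by at least 2 hairpins. Because neighbours share summits, hairpins on a strand with gaps of at most 10 kb were also counted as loci. Of 203 loci 83 had a summit. The 22 loci with more than 1 hairpin held 79 hairpins.

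**Figure D2:**
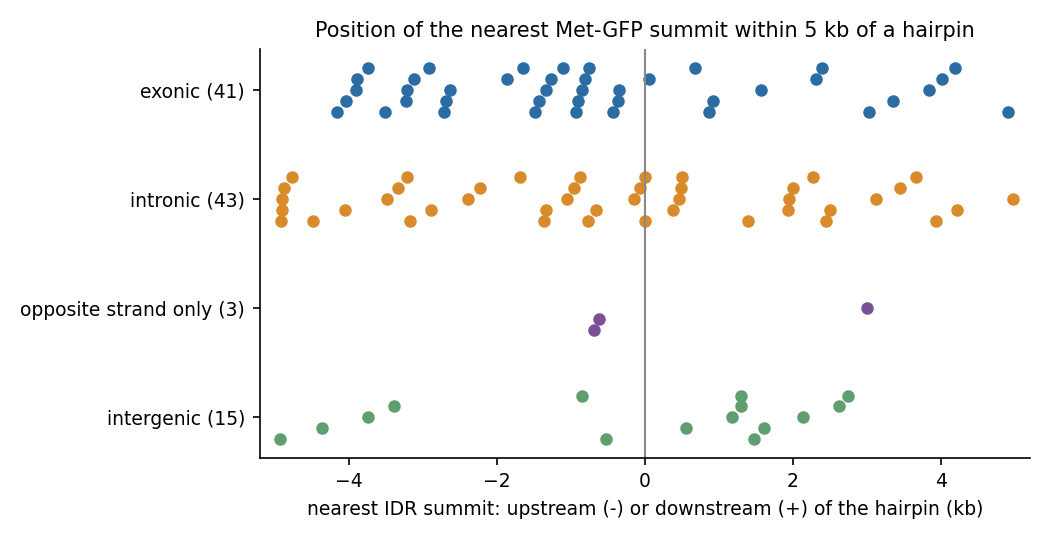
Position of the nearest IDR summit relative to the hairpin (kb, x axis, upstream negative) for the 102 hairpins with a summit within 5 kb, a point each, by class. The points spread over the whole range, with 60 upstream, 40 downstream and 2 inside the hairpin.

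The let-7 complex had a summit and mir-34 had none. The complex lies in exons of lncRNA:let7C (2L, 18455717 to 18473132, plus strand), with mir-100 at 18471434 to 18471533, let-7 at 18472034 to 18472111 and mir-125 at 18472315 to 18472424. All 3 hairpins shared a single IDR summit at 18468810, in an intron of lncRNA:let7C and 13093 bp downstream of its TSS. It lay 2624 bp upstream of mir-100, 3224 bp upstream of let-7 and 3505 bp upstream of mir-125.

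This summit was of middle strength and was present in every replicate. It ranked 3989 of 8513 in the IDR list, with an authors' signal of 206, and 3967, 4385 and 3876 in replicates 1, 2 and 3, whose own signals were 77.8, 67.4 and 69.7. The distance from let-7 to the nearest summit was 3250, 3226 and 3192 bp in the 3 replicates, so it was found at nearly the same place in each. Stronger summits lay farther upstream in the same transcript. The strongest, of rank 1308, was 6542 bp upstream of let-7, and those of rank 1335, 1754 and 2420 were 8285, 6343 and 5666 bp upstream. The TSS of lncRNA:let7C itself had its nearest IDR summit, of rank 7593, 1697 bp away. Weak peaks of the pooled relaxed list came nearer, at 1015 bp from let-7 (rank 21600 of 30000) and 415 bp from mir-100.

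The mir-34 cluster holds mir-317, mir-277 and mir-34 on 3R, on the plus strand. Besides its fall at metamorphosis, mir-34 is known in the fly for its role in ageing of the brain, and mir-277 for control of branched-chain amino acid breakdown. The mir-34 hairpin (10100936 to 10101034) lies in an exon of lncRNA:CR43459. Its nearest IDR summit was 10858 bp downstream, at rank 4407 and 345 bp upstream of a TSS of CAH7. In replicates 1, 2 and 3 the nearest summit was 10837, 8977 and 9009 bp away, so mir-34 was beyond 5 kb in each of them. The same IDR summit was the nearest to mir-277, at 11771 bp.

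The intergenic hairpin mir-317 (10091126 to 10091217) differed from its neighbours. It had an IDR summit 3390 bp upstream at rank 1187 (signal 512), which ranked 1115, 1305 and 1485 in replicates 1, 2 and 3. This summit lay in an intron of lncRNA:CR45054 and was the nearest to the TSS of lncRNA:CR43459, at 6025 bp. In the pooled relaxed list the summit nearest to mir-34 was 2635 bp upstream, at rank 17793. A stronger one lay 2866 bp upstream, at rank 11678, and both were below the IDR threshold.

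**Figure D3:**
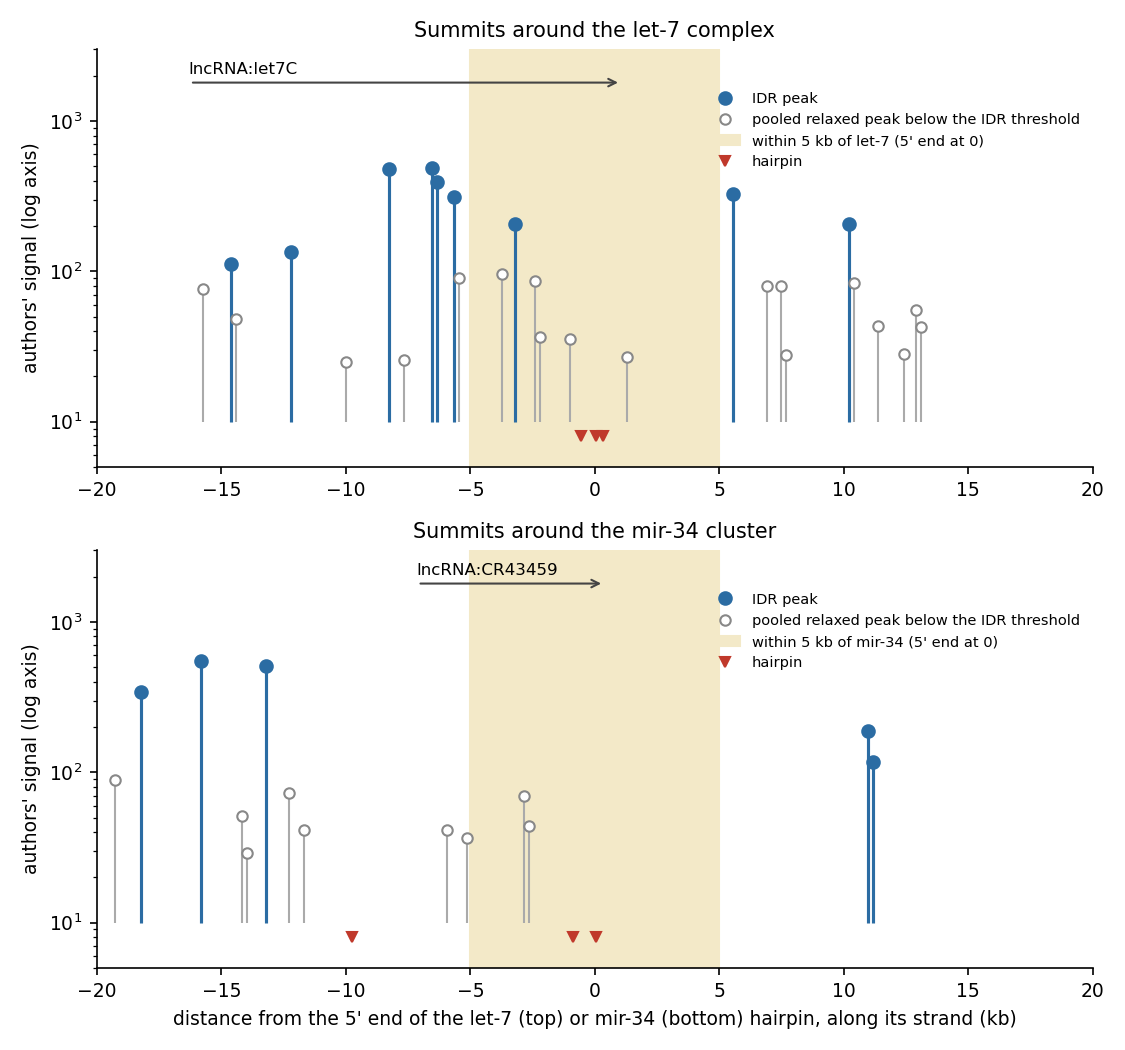
Summits by distance (kb, x axis, along the strand) from the 5′ end of let-7 (top) and mir-34 (bottom), with the authors' signal on a log y axis, filled for IDR peaks and open for weaker pooled peaks. Red marks are the hairpins and shading is the 5 kb range. An IDR summit stands 3224 bp upstream of let-7, and none stands in the shaded range of mir-34.

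Most of the listed microRNAs with known roles in growth, hormone response and metabolism had a summit. This list and the lists below were chosen with earlier results of these data known, so their shares describe the listed members only. Of 12 listed, 10 had a summit in the IDR list and 9, 10 and 10 in replicates 1, 2 and 3, against 39.2% of all hairpins. At the level of loci this was 9 of 11, against 83 of 203. Those without a summit were mir-184, which acts in oogenesis, at 8897 bp from the nearest, and mir-278, which acts on insulin sensitivity in the fat body, at 17923 bp. Their hosts had a summit 1063 bp and 17 bp from a TSS.

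The strongest in this list was mir-282 (3L), with a summit of rank 104 at 2114 bp upstream, which ranked 97, 114 and 102 in replicates 1, 2 and 3. A summit of rank 116 lay 3068 bp upstream of mir-8, a microRNA that promotes body growth from the fat body, and it ranked 101, 153 and 150. The bantam hairpin, which drives tissue growth and blocks the death gene hid, had a summit of rank 393 at 1427 bp upstream, in an exon of lncRNA:CR43334, which ranked 399, 409 and 391. These 3 were stable in rank between replicates. The neighbours mir-275 and mir-305 shared a summit of rank 755, 423 bp upstream of mir-275 and 600 bp upstream of mir-305, which ranked 549, 786 and 1172. In the mosquito Aedes aegypti mir-275 is needed for digestion of blood, and fly mir-305 acts on the balance of gut stem cells. That pair varied more in rank than bantam.

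A summit of rank 790 lay in an intron of SREBP, the gene for the sterol regulatory element binding protein of lipid synthesis. It was 547 bp from a TSS of SREBP and 3479 bp upstream of the hairpin of its intron, mir-33, and ranked 820, 905 and 653. For mir-14, which dampens ecdysone receptor activity and fat storage, the summit of rank 2234 lay 922 bp upstream of the hairpin and 4 bp from the TSS of its host lncRNA:CR43651, and ranked 2276, 2526 and 2224. Both were in all 3 replicates. The memory microRNA mir-276a had its strongest summit at rank 5955, in replicates at 7063, 7380 and 5586, and its relative mir-276b at rank 1817, in replicates at 1789, 1685 and 2554. The remaining member, mir-965, lies in an intron of kis and acts in abdominal histoblasts. Its summit of rank 1938 ranked 1691 and 1936 in replicates 2 and 3 but 13610 in replicate 1, where it fell outside the 8513 strongest.

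**Figure D4:**
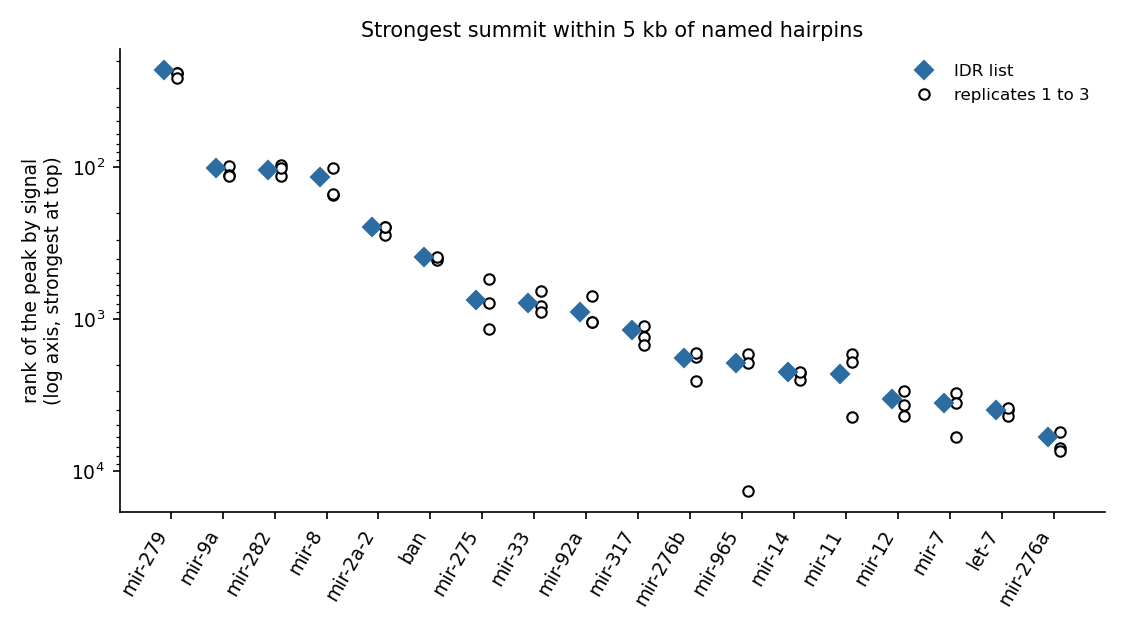
Rank by signal (log y axis, strongest at the top) of the strongest IDR summit within 5 kb of named hairpins, as blue diamonds, with its rank in replicates 1 to 3 as open circles. Ranks run over orders of magnitude between hairpins and lie close together within most of them, and mir-965 has a replicate at rank 13610.

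In the nervous system, sense organ and muscle list 11 of 15 hairpins had a summit, also 11 in each replicate list, against 39.2% of all hairpins. By locus this was 7 of 11, against 83 of 203. It held the strongest summit near any hairpin. The pair mir-279 and mir-996, which limit the formation of carbon dioxide sensing neurons, shared a summit of rank 23 at 129 bp upstream of the TSS of their host lncRNA:CR31044. Its signal was 3039 in the IDR list, and it ranked 24, 24 and 26 in replicates 1, 2 and 3. It was the only summit of the 172 among the 100 strongest IDR peaks. The proneural regulator mir-9a had a summit of rank 101, which ranked 98, 112 and 114, at 4308 bp upstream. That summit lay 367 bp downstream of a TSS of another gene, lncRNA:CR44676. The pair mir-92a and mir-92b, in the body of jigr1, shared a summit of rank 897 at 154 bp upstream of a TSS of jigr1, which ranked 707, 1045 and 1053. The members without a summit were mir-1 and mir-133, known from muscle, the neuronal mir-124, and mir-315, which activates Wingless signalling.

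In the list of K box and apoptosis microRNAs 9 of 13 hairpins had a summit, also 9 in each replicate list, against 39.2% of all hairpins. By locus this was 5 of 7, against 83 of 203. A group of 3 hairpins in introns of spi (mir-2a-1, mir-2a-2 and mir-2b-2) shared a summit of rank 246, 313 bp upstream of a TSS of that gene, which encodes an EGF receptor ligand. It ranked 279, 248 and 247 in the replicates. The next strongest was at mir-11, a microRNA in an intron of E2f1 that limits cell death driven by that gene. Its summit of rank 2314, at 1712, 4438 and 1912 in the replicates, lay 53 bp upstream of a TSS of InR, the insulin receptor gene next to it. The members without a summit were mir-6-1, mir-6-2, mir-6-3 and mir-13b-2.

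Among the microRNAs of the Hox complexes 3 of 4 had an IDR summit, against 39.2% of all hairpins, but only 1 did in replicate 3. Of these, mir-10 had a summit of rank 3580, at 6149, 3055 and 4166 in the replicates. The antisense hairpins mir-iab-4 and mir-iab-8, which repress Ubx, shared a weak summit of rank 7123 that ranked 7493, 5948 and 16514. No summit lay near mir-993.

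The remaining lists hold younger or stage-restricted microRNAs, and are set against 39.2% of all hairpins and 83 of 203 loci. The cluster of 8 hairpins that clears maternal messages in the early embryo, a single locus, had 0 in the IDR list and 0 in each replicate list, and its nearest IDR summit was 12914 bp from mir-6-3. Of 15 mirtrons, whose hairpins are spliced introns that bypass Drosha, 5 (33.3%) had a summit, and 6, 5 and 6 did in the replicates, which is near the share of all hairpins. The strongest were at mir-1004, where the summit of rank 146 lay 210 bp upstream of a TSS of bowl, and at mir-1006, of rank 189. They ranked 151, 143 and 169 for mir-1004 and 181, 225 and 200 for mir-1006. The others named by rank were mir-1013 (rank 2164, in wts) and mir-1012 (rank 4264, in Lerp). Of 26 hairpins of testis and fast-evolving clusters, 7 (26.9%) had a summit, and all of these belong to the single locus on 2R from mir-310 to mir-992. They shared a summit of rank 1600, 442 bp upstream of a TSS of qsm, which ranked 1417, 2145 and 1657.

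In the first 6 lists combined (let-7 complex, mir-34 cluster, growth, K box, Hox and nervous system), 37 of 50 hairpins (74.0%) had a summit, against 65 of the remaining 210 (31.0%). By locus the numbers were 26 of 35 and 58 of 171, with 3 loci that hold members of both groups counted in each. The replicate lists gave 72.0% ± 2.0 and 30.8% ± 1.10 (SD, n = 3). This grouping was made after the values had been seen, and no test is given.

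**Figure D5:**
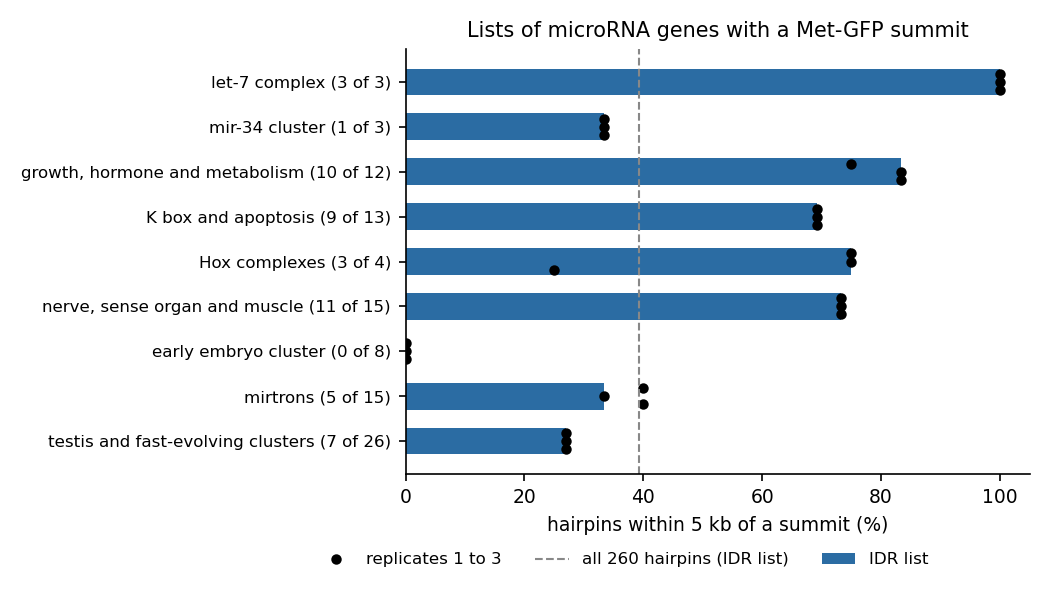
Share of hairpins with a summit within 5 kb (%, x axis) in each list of microRNAs, as bars for the IDR list and points for replicates 1 to 3, with the number of members in brackets. The dashed line marks all 260 hairpins, at 39.2%. The bars of the let-7, growth, K box, Hox and nervous system lists end above it and those of the mir-34, early embryo, mirtron and testis lists below it, while the points cross it for Hox in replicate 3 and for mirtrons in replicates 1 and 3.

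Some strong summits were near hairpins outside these lists. The summit of rank 142 lay 402 bp upstream of a TSS of CG5953, host of mir-4943, and ranked 142, 124 and 176. Those of rank 209 and 462 lay at TSSs of for and MRP, hosts of mir-4972 and mir-9382. Summits of rank 599 and 675 lay 1331 bp from mir-9377, in an intron of Tis11, and 4023 bp from mir-955, at the TSS of CG14968. All of these were found among the strongest peaks of each of the 3 replicates.

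The intronic hairpins nearest to a summit were mir-4962 in Tlk and mir-4974 in CG8671, both with a summit inside. For mir-4962 the summit of rank 3346 was inside the hairpin in every replicate, at ranks 4301, 4133 and 2424. For mir-4974 the nearest replicate summits were 48, 2944 and 2937 bp away, and its weak IDR summit of rank 7138 ranked 6078, 10355 and 10849, outside the 8513 strongest in replicates 2 and 3. Next came mir-4967, at 63 bp, then mir-2491 at 138 bp and mir-9377 at 376 bp. In replicates 2 and 3 the nearest summits to mir-4967 were 1183 and 1180 bp away.

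Among intergenic hairpins, a class of fewer members, the nearest were mir-2496 at 519 bp (rank 2725) and mir-305 at 563 bp, followed by mir-4981 at 843 bp, mir-310 at 1178 bp and mir-311 at 1303 bp. In replicates 1, 2 and 3 mir-2496 had its nearest summit at 488, 493 and 494 bp. Although mir-305 is intergenic by annotation, it starts just beyond the end of lncRNA:CR43857, the host of mir-275.

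The 172 summits near hairpins were of ordinary strength and reproducibility. Their median rank was 4463.5, 78 of them (45.3%) were among the 4256 strongest IDR peaks, and 125 (72.7%) were overlapped by a peak in all 3 replicates, against 73.6% of all IDR peaks. They lay within 500 bp of a TSS in 40.1%, against 32.2% of all IDR summits, in an exon in 10.5% against 2.69%, in an intron in 37.8% against 45.2%, and in intergenic sequence in 11.6% against 19.9%. The exonic hosts named above contribute to the exon count, for example at bantam, mir-275, mir-13a and mir-276a. Mean G+C in the 101 bp around the summit was 35.7%, against 33.6%.

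Motifs were looked for on both strands within 50 bp of the summit. The E-box CACGTG was at 2 of the 172 summits (1.16%), against 0.787% of all IDR summits. These were a summit of rank 948 near mir-8 and the summit inside mir-4962. The C-box CACGCG was at 4 (2.33%), against 1.42%, near the mir-275 pair (rank 1790), mir-308, mir-967 and mir-9382 (rank 5184). The bHLH-PAS core GCGTG, which any C-box contains, was at 12 (6.98%), against 7.02%. None of these sequences was at the let-7 summit. The variant CATATG was at 9 (5.23%), against 3.88%. The DREF element TATCGATA was at 2 (1.16%), against 0.728%, near mir-4982 and, at a summit of rank 580, near the mir-279 pair. The rank 23 summit of that pair and the rank 116 summit of mir-8 held none of the searched motifs. The GATA motif GATAA was at 39 (22.7%), against 23.6%, and the nuclear receptor hexamer AGGTCA at 4 (2.33%), against 1.93%. These differences were not tested.

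Genes that make microRNAs and carry out silencing were examined at their start sites. Of 16 genes, 6 (37.5%) had a TSS within 1 kb of an IDR summit, against 22.2% of all protein-coding genes, and the replicate lists gave 5, 6 and 5. In the microRNA branch 4 of 12 (33.3%) had a summit. None was found for drosha and pasha, which cut the primary transcript, for their partner Ars2, which had a summit in 1 of the 3 replicate lists, for the exporter Ranbp21, or for Dcr-1 and its partner loqs. The effector AGO1 had a summit of rank 4513 and its silencing partner gw one of rank 989, which ranked 1152, 920 and 969. The trimming enzyme Nbr had a summit of rank 4109, which was nearer to a TSS of Noc2 and had no match in replicate 2, and the deadenylase Pop2 of rank 4700. The deadenylase subunits twin and Not1 had none.

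In the siRNA branch 2 of 4 genes had a summit. The summit of rank 815 at r2d2 was nearer to a TSS of Herp and ranked 943, 835 and 808. That of AGO2, the siRNA effector, had rank 6929 and was among the 8513 strongest in 1 of the 3 replicates. None was found for Dcr-2 and the methylase Hen1.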

How the data were processed

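Met-GFP ChIP-seq was done on 3 libraries of 1 group. Per the deposited text listings, the authors called relaxed peaks in every replicate and in the replicates pooled, against a control, and cut the pooled list by IDR. No aligner or peak caller is named in the sources used here. The deposited lists give a signal per peak as the authors' caller wrote it, and it was used only to rank peaks within a list. Depth is unknown, so no counting interval is given. The dm3 lists were not used.

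The 5 dm6 lists were read with Python 3.11.15, NumPy 2.4.6 and pandas 2.3.3. Summits were set against Ensembl release 115 genes and RefSeq Release 6 sequence, both in dm6, 1-based. In the annotation let-7 is mir-let7, bantam mir-ban and mir-263a mir-bft. Distance ran from the summit to the nearest base of the hairpin. A peak of a replicate matched an IDR summit when its summit was within 250 bp, and an overlap needed at least 1 bp. Hosts exclude pseudogenes, transposable elements and other small RNAs. Means and SDs are over 3 replicate lists, which the labels number as biological replicates. The distance and class code was tested on simulated data. Named were the let-7, mir-34 and growth lists in full, the 20 hairpins with the strongest summit, the 5 nearest intronic and intergenic hairpins, up to 4 of every other list, and all pathway genes; members outside this rule are named where a list's count is accounted for or a motif is located. The members and lists were chosen with earlier results of these data known. Alternatives were other distances, stricter and looser lists, single replicates, summits away from a TSS, either strand for hosts, and, added after the data had been seen, a host's TSS.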

Additional observations from a re-analysis of the deposited data

How the results depend on the processing

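Of 75 alternative values of the counts, 61 stayed within a factor of 1.5 of the reported count, and 14 did not. Within 1 kb and 2 kb the counts fell to 29 and 49 hairpins, 12 and 19 intronic hairpins, 3 and 8 intergenic hairpins, and 25 and 38 loci, as fewer positions are within reach. The pooled relaxed list, with 30000 peaks, gave 158 hairpins, against 61.4% of positions, 27 intergenic hairpins and 129 loci, and the whole relaxed replicate lists gave a mean of 169 hairpins. With only the 4256 strongest IDR peaks, 52 loci and 3 pathway genes had a summit. For each replicate in turn, only IDR peaks overlapped in both other replicates were kept. The IDR list itself still rested on every replicate. The counts were then 90 to 92 hairpins, 38 to 40 intronic hairpins, 14 to 15 intergenic hairpins and 71 to 73 loci. Pathway genes with a summit numbered 4 to 5. Leaving the list of each replicate out of the replicate mean gave 99.5 to 102.5 hairpins. Counting a summit at a TSS of the host as well, an alternative chosen after seeing the data, gave 122 hairpins and 58 intronic hairpins. No paired analysis was possible because there was only 1 group. Depth is unknown, so it cannot be said which weak peaks were missed for lack of reads.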

Other observations

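The share of hairpins with a summit differed between arms. It was 50% of 56 hairpins on 2L, against 34.5% of positions there, and 41.8% of 55 on 2R, against 28.7%. On 3L it was 35.5% of 31, against 32.8%, and on 3R 41.4% of 58, against 31.7%. On X it was 25.9% of 58 hairpins, against 36.1% of positions, and X was the only arm below its positions. Arm 4 held 2 hairpins, 1 of them with a summit. Each hairpin of a cluster was counted here, and loci were not counted by arm. For example, the 26 hairpins of testis and fast-evolving clusters make up 4 loci, of which 1 had a summit. The difference between arms was not tested.

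Of the 102 hairpins with a summit, 56 had at least 2. A single summit lay within 5 kb of 46 hairpins, 2 summits within 5 kb of 26 and at least 3 within 5 kb of 30. The hairpin mir-4962, in an intron of Tlk, the gene for the Tousled-like kinase, had 9, and mir-275, mir-305 and mir-279 had 6 each. The seed CUUUGGU of mir-9a is shared by mir-9b and mir-9c, and 1 of these 3 hairpins had a summit. The seed CACUGGG of mir-3, mir-309 and mir-318 had 0 of 3. Both counts stand against 39.2% of all hairpins.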
